A study of Arabidopsis thaliana with 12 samples.

Results

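The class II homeodomain-leucine zipper (HD-ZIPII) genes described here are *ATHB2*, *HAT1*, *HAT2*, *HAT3*, *ATHB4*, *HAT9*, *HAT14* and *HAT22* of *Arabidopsis thaliana*. They were taken by gene identifier, as named members of the class and not by a threshold on a measured value, and are 8 of the 32824 genes in the deposited expression files. All 8 had values above 0 in all 12 libraries and all 8 passed the filter for testing, a mean of at least 0.5 transcripts per 1000000 (TPM), which 20020 genes passed. HD-ZIPII proteins bind DNA through a homeodomain, pair through the leucine zipper beside it, and act mostly as transcriptional repressors that recruit TOPLESS corepressors through an EAR motif. In light rich in red, active phytochromes keep PHYTOCHROME INTERACTING FACTORS (PIFs) in check. In the far-red rich light under a canopy the phytochromes are inactivated, PIFs act, and *ATHB2* is among the classical genes that respond. In *Arabidopsis* leaves, HD-ZIPII proteins also work with class III HD-ZIP (HD-ZIPIII) proteins such as REVOLUTA (REV) in setting the upper side of the organ.

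The study asked how light changes the transcriptome of seedlings with altered vascular patterning. RNA was sequenced from Col-0 wild type seedlings, *rev-5* mutants, which carry an amino acid substitution in REV, and *wox4* mutants, a T-DNA insertion line in WUSCHEL HOMEOBOX4 (*WOX4*), a gene of the vascular cambium. After 2 days in white light (WL, ratio of red to far-red light 7.7), plants of each genotype stayed there for another 8 days or spent these 8 days under far-red enriched white light (WL+FR, ratio 0.2). Each of the 6 groups had 2 libraries, which the methods of the study call biological replicates. The methods of the study state continuous white light for the hypocotyl and histology plants, and no day length for the plants sequenced. The material was labelled as seedlings, and each mutant was represented by 1 allele. An HD-ZIPII mutant was not among the groups. Replicate numbers ran from 1 to 12 over the series and are given in that form here.

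The files held FPKM values, which were rescaled to TPM. Their confidence bounds, if these hold counting error only, correspond to between 12650000 and 14100000 fragments per library. This condition does not hold for every gene. In replicate 1 (Col-0 in WL), the bounds correspond to 2345 fragments for *CAB1* at 72479 TPM but to 188705 for *LHB1B1* at 18196 TPM. *WOX4* stood at 1.58 to 3.93 TPM in the 8 Col-0 and *rev-5* libraries and at 112 to 149 TPM in the 4 libraries labelled *wox4*, so the transcript level does not show a loss in the latter, and they are called libraries labelled *wox4* below. *REV*, in which the *rev-5* allele changes an amino acid, stood at 6.0 to 7.82 TPM in all 12 libraries, which does not check the label. Of the marker lists for organs and tissues, the 4 leaf markers summed to 94891 to 103612 TPM in WL and 60914 to 68712 TPM in WL+FR. This sum was mostly *CAB1* and *LHB1B1*, which passed as lower in Col-0 (log2 fold changes -0.48 and -1.60). *RBCS1A* (-0.11) and *LHCA1* (0.02) did not pass in Col-0. The 4 root markers summed to 563 to 770 TPM in WL and 798 to 935 TPM in WL+FR, a sum mostly of *PYK10* (log2 fold change 0.37) and *CASP1* (0.80), which passed as higher in the mean of the genotypes, while *COBL9* (0.10) and *EXPA7* (-0.04) did not pass. The 3 xylem markers summed to 52.2 to 75.7 TPM in WL and 92.5 to 103 TPM in WL+FR, and the 2 phloem markers to 116 to 143 and 158 to 188 TPM. The 3 floral markers summed to at most 0.6 TPM, and *AG* was listed at 0 in every library. None of these sums overlapped between the lights except that of the floral markers.

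A stretch of coding sequence that encodes the same amino acids in all 8 genes is shown first, because it carries the base-contacting helix of the homeodomain and lets the members be compared. These are 54 coding bases each, from the TAIR10.1 genome and its RefSeq annotation, written 5′ to 3′ on the coding strand, with capitals for each base that differs from *ATHB2*.
ATHB2: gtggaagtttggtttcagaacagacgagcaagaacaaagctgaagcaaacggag
HAT1: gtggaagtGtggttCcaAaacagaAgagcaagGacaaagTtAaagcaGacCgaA
HAT2: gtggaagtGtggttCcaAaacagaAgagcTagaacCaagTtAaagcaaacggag
HAT3: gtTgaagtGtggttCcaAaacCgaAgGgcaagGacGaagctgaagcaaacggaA
ATHB4: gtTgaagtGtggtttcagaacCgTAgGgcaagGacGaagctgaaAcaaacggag
HAT14: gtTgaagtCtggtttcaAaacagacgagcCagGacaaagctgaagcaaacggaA
HAT9: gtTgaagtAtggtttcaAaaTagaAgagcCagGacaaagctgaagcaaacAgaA
HAT22: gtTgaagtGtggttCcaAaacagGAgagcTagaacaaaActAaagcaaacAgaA

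Between 6 bases (*HAT14*) and 11 bases (*HAT22*) of the 54 differed from *ATHB2*, and 0 of the 18 codons encoded another amino acid in any of the 7 other genes. Over whole coding sequences the closest pairs were *HAT9* and *HAT22* with 80.7% identical bases, *HAT1* and *HAT2* with 77.3%, *HAT3* and *ATHB4* with 76.4%, and *ATHB2* and *HAT1* with 72.8%. The longest run of identical transcript bases was 38 (*HAT1* and *HAT2*), followed by 35 (*HAT9* and *HAT22*). How fragments matching more than 1 of these genes were assigned is not given in the sources used here. None of the 8 gene models overlapped another annotated gene.

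The genes lie on 4 chromosomes. In TAIR10.1, *ATHB2* (AT4G16780) lies at chr4:9449114-9450905 and *HAT22* (AT4G37790) at chr4:17768042-17769676, both on the plus strand, as does *HAT1* (AT4G17460) at chr4:9739518-9741234. *HAT2* (AT5G47370) at chr5:19216271-19218007, *HAT14* (AT5G06710) at chr5:2067941-2070566, *HAT3* (AT3G60390) at chr3:22320580-22322661, *ATHB4* (AT2G44910) at chr2:18517656-18519731 and *HAT9* (AT2G22800) at chr2:9704632-9706217 lie on the minus strand. The starts and ends in the files were the same for all 8.

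The 1000 bases upstream of each annotated start were searched on both strands for the G-box CACGTG and the PBE-box CACATG, sequences that PIFs bind, and for CAATNATTG. The last is a general HD-ZIP pattern with any middle base and is not particular to HD-ZIPII proteins. Stretches of 4 genes are shown, as examples of each motif near a gene that rose, in the direction of the gene and with the match in capitals. CAATNATTG began 477 bases upstream of *ATHB2*, with A as its middle base, and 738 bases upstream of *HAT1*, with G. The PBE-box (here as its reverse complement) began 118 bases upstream of *HAT2*, and the G-box 225 bases upstream of *HAT14*. A PBE-box also began 277 bases upstream of *HAT3*, which did not rise, and its stretch is not shown.
ATHB2, chr4:9448607-9448675, plus strand: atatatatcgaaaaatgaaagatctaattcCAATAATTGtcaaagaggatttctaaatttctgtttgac
HAT1, chr4:9738750-9738818, plus strand: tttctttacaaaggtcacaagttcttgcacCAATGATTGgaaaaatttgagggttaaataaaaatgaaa
HAT2, chr5:19218090-19218155, minus strand: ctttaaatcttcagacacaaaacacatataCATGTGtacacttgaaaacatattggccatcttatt
HAT14, chr5:2070756-2070821, minus strand: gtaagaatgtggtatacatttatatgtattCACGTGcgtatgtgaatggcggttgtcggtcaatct

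CAATNATTG was found upstream of 2 of the 8 members and of 3.44% of 27443 protein-coding genes, the G-box upstream of 1 member and 14.8% of genes, and the PBE-box upstream of 4 members (*HAT1*, *HAT2*, *HAT3* and *HAT22*) and 37.7% of genes. None of the 3 motifs was found in this window of *ATHB4* or *HAT9*. A match to 1 of the motifs is never a match to another, and these matches describe the sequence only.

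Far-red light moved the family unevenly. *ATHB2* rose 3.90-fold, *HAT2* 2.21-fold and *HAT1* 1.64-fold as means of the 3 genotypes, *ATHB4*, *HAT14*, *HAT22* and *HAT9* rose by 1.33 to 1.52-fold, and *HAT3* stood at 0.98-fold. Fold changes throughout are on the scale of log2(TPM + 1), which understates changes of genes with low values. In limma with Benjamini-Hochberg adjustment over all 20020 genes, 5 of 8 members passed an adjusted p of 0.05 as higher in Col-0, where 13.3% of all tested genes did. In *rev-5* it was 7 of 8 members against 11% of tested genes, in the libraries labelled *wox4* 6 of 8 against 15.4%, and as a mean of the 3 genotypes 7 of 8 against 28.1%. No member passed as lower in any of these comparisons, as 4.41% (Col-0), 2.83% (*rev-5*), 3.44% (libraries labelled *wox4*) and 7.19% (mean) of tested genes did. After quantile normalization 13.6% of tested genes passed as higher and 14.3% as lower in the mean. With the thresholds of the study, an absolute log2 fold change above 1 and an adjusted p under 0.01, 2 members, *ATHB2* and *HAT2*, passed in each genotype, where 1.38% (Col-0), 0.769% (*rev-5*) and 1.24% (*wox4*) of tested genes passed as higher. As these are whole seedlings, more cells expressing a gene and more transcript per cell cannot be told apart. The sums of the root markers (2 of 4 genes passed as higher), the xylem markers (3 of 3) and the phloem markers (1 of 2) given above were higher in WL+FR, as the members were. That of the leaf markers was lower, with 3 of 4 genes passing as lower. After quantile normalization 1 of these 4 passed as lower and 1 as higher. The part of these markers in the members' changes was not tested.

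**Figure D1:**
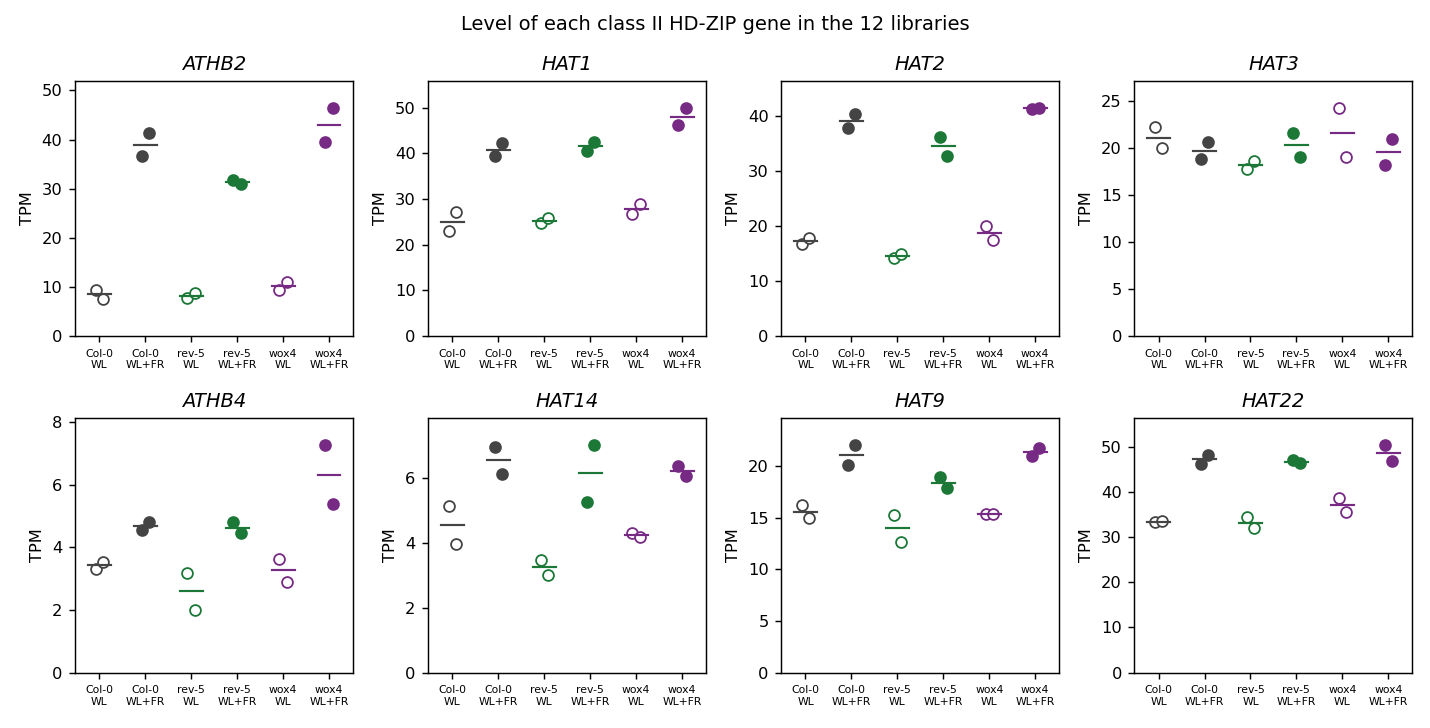
Level of each of the 8 HD-ZIPII genes in TPM (vertical axes, each from 0) in the 12 libraries, by genotype and light (horizontal axes). Open points are WL libraries, filled points are WL+FR libraries and bars are the means of 2 libraries. The filled points lie above the open points of the same genotype for all genes except *HAT3*, where they do so in *rev-5* only.

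*ATHB2*, a repressor-type factor that promotes elongation in shade, was the member with the largest difference. In Col-0 it stood at 9.30 and 7.57 TPM in WL and at 36.6 and 41.3 TPM in WL+FR. In *rev-5* the levels were 7.64 and 8.73 TPM in WL and 31.8 and 31.0 TPM in WL+FR. The libraries labelled *wox4* gave 9.31 and 10.9 TPM in WL and 39.6 and 46.4 TPM in WL+FR. The lowest WL+FR library was above the highest WL library. The log2 fold change was 2.09 (SE 0.13, adjusted p = 5.47e-06, limma) in Col-0. It was 1.82 in *rev-5* and 1.98 in the libraries labelled *wox4*. Of all tested genes, 0.285% had a larger mean rise.

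*HAT2*, an auxin-responsive relative, followed. It stood at 16.7 and 17.9 TPM in WL and at 37.7 and 40.3 TPM in WL+FR in Col-0. In *rev-5* it went from 14.2 and 14.9 TPM to 36.2 and 32.8 TPM, and in the libraries labelled *wox4* from 19.9 and 17.5 TPM to 41.3 and 41.3 TPM. The lights did not overlap in any genotype, and the lowest values in each light were those of *rev-5*. The log2 fold change in Col-0 was 1.13 (SE 0.08, adjusted p = 1.85e-05, limma), with 1.19 in *rev-5* and 1.11 in the libraries labelled *wox4*.

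*HAT1*, the closest relative of *HAT2* in sequence, is a factor also known from brassinosteroid responses. In Col-0 it stood at 22.9 and 27.1 TPM in WL and at 39.3 and 42.3 TPM in WL+FR. The *rev-5* libraries held 24.6 and 25.7 TPM in WL and 40.6 and 42.5 TPM in WL+FR, and those labelled *wox4* 26.7 and 29.0 TPM in WL and 46.1 and 49.8 TPM in WL+FR. Again the lights were separate in every genotype. The log2 fold changes were 0.69 (SE 0.09, adjusted p = 0.000554, limma), 0.70 and 0.76 in Col-0, *rev-5* and the libraries labelled *wox4*.

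*HAT3* and *ATHB4* form the next pair and, in *Arabidopsis*, act together with *ATHB2* in leaf polarity and embryo patterning. *HAT3* gave 22.3 and 19.99 TPM in WL and 18.9 and 20.6 TPM in WL+FR in Col-0. Its levels in *rev-5* were 17.8 and 18.7 TPM in WL and 21.6 and 19.1 TPM in WL+FR, and in the libraries labelled *wox4* 24.3 and 19.1 TPM in WL and 18.2 and 21.0 TPM in WL+FR. The lights overlapped in Col-0 and in the libraries labelled *wox4* but not in *rev-5*. The mean log2 fold change was -0.03 with a 95% interval from -0.19 to 0.13 (adjusted p = 0.816, limma), which leaves out the mean rises of the other 7 members.

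*ATHB4* was the member with the lowest level in 5 of 6 groups. In Col-0 it stood at 3.31 and 3.53 TPM in WL and at 4.54 and 4.81 TPM in WL+FR. It was at 3.19 and 1.99 TPM in WL and 4.80 and 4.45 TPM in WL+FR in *rev-5*, and at 3.63 and 2.89 TPM in WL and 7.26 and 5.37 TPM in WL+FR in the libraries labelled *wox4*. Although the lights did not overlap, the log2 fold change in Col-0, 0.36 (SE 0.19), did not pass (adjusted p = 0.252, limma). It passed narrowly in *rev-5* (0.67, adjusted p = 0.0492, limma) and in the libraries labelled *wox4* (0.77, adjusted p = 0.0213, limma). The call in *rev-5* was lost under 11 alternatives, among them without replicate 10 (adjusted p = 0.254), 11 (0.186) or 12 (0.143), and that in the libraries labelled *wox4* under 4, among them without replicate 6 (0.125) or 7 (0.143). In these libraries the bounds, if they hold counting error only, correspond to 21 to 76 fragments for *ATHB4*.

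*HAT14*, the other member of low level, stood at 5.14 and 3.96 TPM in WL and 6.96 and 6.13 TPM in WL+FR in Col-0. The *rev-5* values were 3.47 and 3.02 TPM in WL and 5.26 and 7.01 TPM in WL+FR, and the libraries labelled *wox4* had 4.30 and 4.18 TPM in WL and 6.36 and 6.06 TPM in WL+FR. Every WL+FR library was above every WL library. The change passed in *rev-5* (log2 fold change 0.74, adjusted p = 0.014, limma) but not in Col-0 (0.45, adjusted p = 0.0877) or the libraries labelled *wox4* (0.46, adjusted p = 0.0752). In *rev-5* the call was lost without replicate 10 (adjusted p = 0.0879) or 12 (0.103). The response of *HAT14* in *rev-5* did not pass the test of its difference from Col-0 (0.29, 95% interval -0.21 to 0.80, adjusted p = 0.758, limma).

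*HAT9* and *HAT22* are the most similar pair in sequence. *HAT9* stood at 16.3 and 15.0 TPM in WL and 20.1 and 22.1 TPM in WL+FR in Col-0, at 15.3 and 12.7 against 19.0 and 17.9 TPM in *rev-5*, and at 15.4 and 15.4 against 21.0 and 21.8 TPM in the libraries labelled *wox4*. *HAT22*, also known as *ABIG1* and linked to abscisic acid and drought responses, stood at 33.3 and 33.5 TPM in WL and 46.3 and 48.3 TPM in WL+FR in Col-0. It was at 34.5 and 32.0 against 47.1 and 46.3 TPM in *rev-5* and at 38.7 and 35.6 against 50.4 and 47.0 TPM in the libraries labelled *wox4*. Both genes were higher in WL+FR in every genotype without overlap. The log2 fold changes of *HAT9* were 0.41, 0.38 and 0.45 in Col-0, *rev-5* and the libraries labelled *wox4*, and all passed (adjusted p = 0.017, 0.0314 and 0.0113, limma). The calls of *HAT9* were lost under 5 of 14 alternatives in Col-0, 8 of 14 in *rev-5* and 4 of 13 in the libraries labelled *wox4*, among them after quantile normalization in all 3 genotypes and without replicate 2 or 4 in Col-0 (adjusted p = 0.104 and 0.10), 10, 11 or 12 in *rev-5* (0.171, 0.151 and 0.0864) and 5, 6 or 8 in the libraries labelled *wox4* (0.0559, 0.055 and 0.0706). The log2 fold changes of *HAT22* were 0.49, 0.48 and 0.38, and all passed (adjusted p = 0.000744, 0.00118 and 0.00326, limma), the last of them not after quantile normalization (0.0521).

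**Figure D2:**
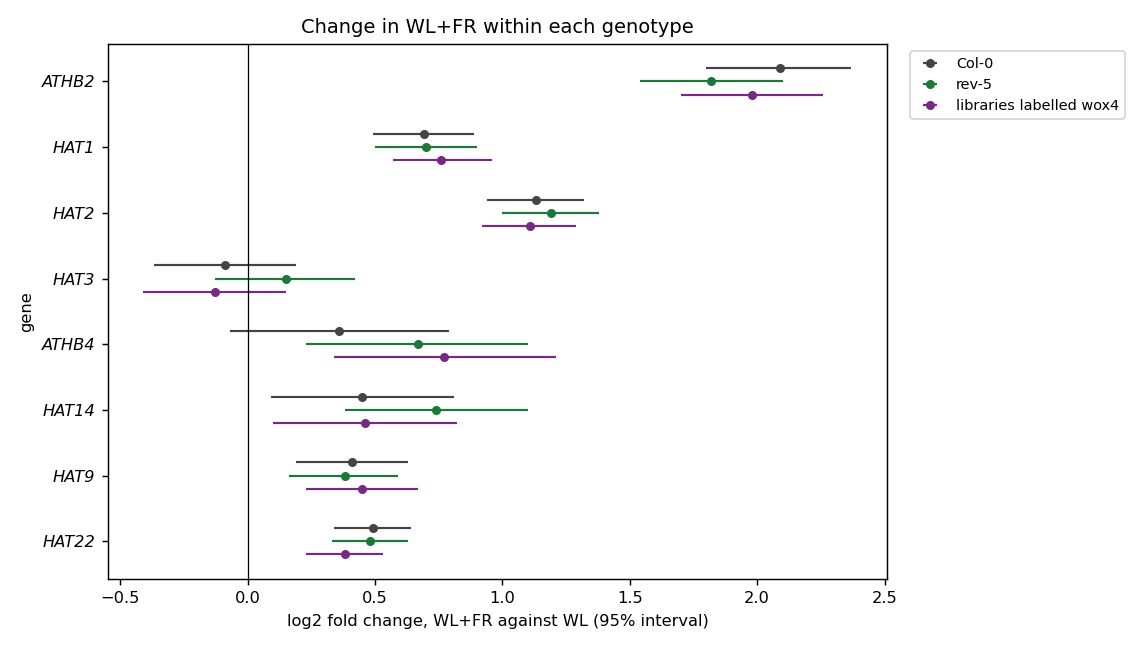
Log2 fold change of WL+FR against WL (horizontal axis) for each of the 8 genes (vertical axis) in Col-0, *rev-5* and the libraries labelled *wox4*. Points are limma estimates from 2 against 2 libraries and lines are 95% intervals. In Col-0 the values run from -0.09 for *HAT3* to 2.09 for *ATHB2*.

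All members but *HAT3*, 7 of 8, were higher in WL+FR without overlap in all 3 genotypes, a pattern that 20.7% of the tested genes also showed. With 2 libraries against 2, an exact permutation test within 1 genotype cannot reach 0.05. Rearranging the lights within the 3 genotypes together gave an exact two-sided p of 0.00926 for each of the 7, the smallest that these rearrangements allow, and 0.769 for *HAT3*. The median log2 change of all tested genes was 0.11 as a mean of the 3 genotypes and -0.02 after quantile normalization. After this normalization the 7 members still passed as a mean of the 3 genotypes, with log2 fold changes of 1.83 for *ATHB2*, 1.01 for *HAT2*, 0.58 for *HAT1*, 0.46 for *ATHB4*, 0.42 for *HAT14*, 0.32 for *HAT22* and 0.28 for *HAT9*, and *HAT3* stood at -0.16 (adjusted p = 0.131, limma).

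Ratios between members within a library do not depend on the scaling of that library, and they were compared, as a test added after the data were seen, for the 4 pairs with the highest coding identity. The *HAT9* level was 0.40 to 0.49 times that of *HAT22* in WL and 0.39 to 0.46 times in WL+FR, and this ratio did not pass the exact permutation test (two-sided p = 0.62, adjusted over the 4 pairs 0.62). *HAT1* stood at 1.34 to 1.74 times *HAT2* in WL and 1.04 to 1.30 times in WL+FR. The ratio of *HAT3* to *ATHB4* went from 5.59 to 9.37 in WL to 2.51 to 4.51 in WL+FR, and that of *ATHB2* to *HAT1* from 0.28 to 0.41 in WL to 0.73 to 0.98 in WL+FR. These last 3 ratios did not overlap between the lights and each had an exact two-sided p of 0.00926 (0.0123 adjusted over the 4 pairs). These 3 ratios restate the unequal rises of the members given above. How many other gene pairs would pass the same test was not determined.

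The order of the levels, in TPM and so per length of transcript, shifted accordingly. *HAT22* had the highest mean in all 6 groups. In WL the order *HAT22*, *HAT1*, *HAT3*, *HAT2*, *HAT9*, *ATHB2*, *HAT14*, *ATHB4* was that of all 3 genotypes. Neighbours in it did not overlap in Col-0, while *HAT3* and *HAT2* overlapped in the libraries labelled *wox4* and *HAT2* and *HAT9* as well as *HAT14* and *ATHB4* did in *rev-5*. In WL+FR, *ATHB2* moved from the 6th place to the 4th in Col-0 and *rev-5* and to the 3rd in the libraries labelled *wox4*. *HAT3* moved from the 3rd to the 6th place in Col-0 and the libraries labelled *wox4* and to the 5th in *rev-5*, although *HAT9* and *HAT3*, the 5th and 6th, overlapped in the former groups. *HAT1*, *HAT2* and *ATHB2* overlapped in Col-0 in WL+FR, and in the libraries labelled *wox4* *HAT22*, *HAT1*, *ATHB2* and *HAT2* each overlapped the next.

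The levels of the 8 genes summed to 129 ± 0.49 TPM (SD, n = 2) in WL and 218 ± 10.96 TPM in WL+FR in Col-0. The sums were 119 ± 2.05 and 204 ± 3.89 TPM in *rev-5* and 138 ± 5.44 and 234 ± 6.08 TPM in the libraries labelled *wox4*. *ATHB2* made up 6.55% ± 0.92 of the sum in Col-0 in WL and 17.9% ± 0.64 in WL+FR. The share of *HAT3* went from 16.4% ± 1.13 to 9.05% ± 0.07.

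**Figure D3:**
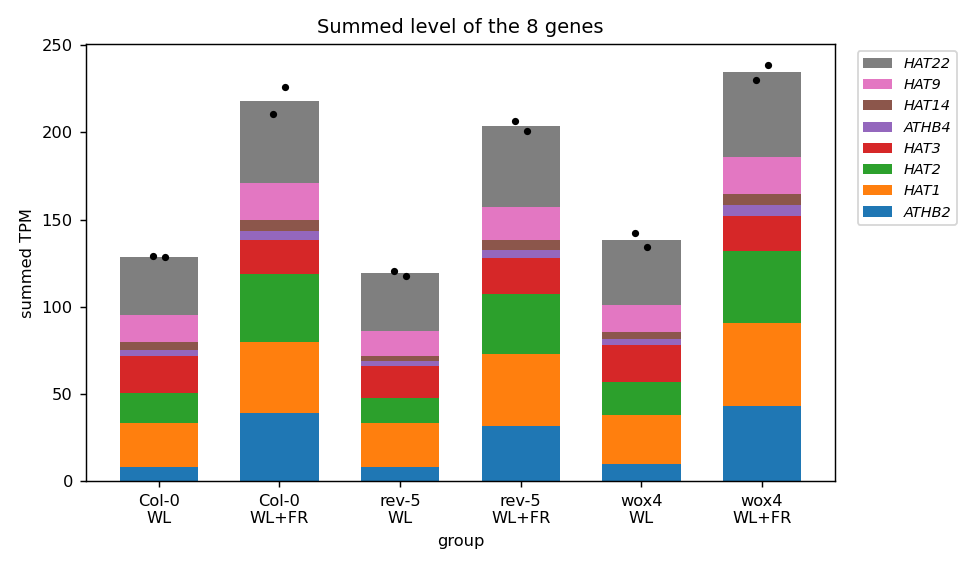
Summed level of the 8 genes in TPM (vertical axis, from 0) in the 6 groups (horizontal axis). Each coloured segment is the mean of 1 gene over 2 libraries and the black points are the sums of the single libraries. In Col-0 the sum was 129 TPM in WL and 218 TPM in WL+FR.

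The mutants were then compared with Col-0, since REV and the HD-ZIPII factors share functions in leaves. Both comparisons use the same 4 Col-0 libraries. None of the 8 members passed an adjusted p of 0.05 (limma) for a difference from Col-0 in either mutant in either light, nor for a difference in its response to light. Among all tested genes, 4.67% passed in *rev-5* in WL, 3.54% in *rev-5* in WL+FR, 0.265% in the libraries labelled *wox4* in WL and 1.05% in WL+FR. The differences in response passed for 0.395% of genes in *rev-5* and 0.105% in the libraries labelled *wox4*. At an unadjusted p under 0.05, 2 members were found in *rev-5* in WL (*HAT2* and *HAT14*), 1 in *rev-5* in WL+FR (*ATHB2*), 1 in the libraries labelled *wox4* in WL (*HAT22*), 1 in these in WL+FR (*HAT1*), and 0 for either difference in response. Of all tested genes, 18.6% and 17% reached this in *rev-5* in WL and WL+FR, 9.26% and 14.5% in the libraries labelled *wox4* in WL and WL+FR, and 9.19% and 6.93% for the difference in response of *rev-5* and of the libraries labelled *wox4*. voom on approximated fragments also called 0 members in all 6 comparisons.

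*HAT2* had lower values in both *rev-5* groups than in Col-0 in the same light. They were 14.2 and 14.9 against 16.7 and 17.9 TPM in WL and 36.2 and 32.8 against 37.7 and 40.3 TPM in WL+FR. Its log2 difference was -0.23 (95% interval -0.42 to -0.05, adjusted p = 0.168, limma) in WL and -0.17 (-0.36 to 0.01, adjusted p = 0.33) in WL+FR. As a mean of both lights, a comparison added after these values were seen, it was -0.20 (95% interval -0.34 to -0.07) and did not pass either (adjusted p = 0.0617, limma), where 4.31% of tested genes passed as lower. *HAT14* had a larger difference in *rev-5* in WL, -0.38 (95% interval -0.74 to -0.02, adjusted p = 0.24, limma), from 3.47 and 3.02 against 5.14 and 3.96 TPM. In WL+FR it was -0.09 and the values overlapped. Its mean of both lights was -0.23 (95% interval -0.49 to 0.02, adjusted p = 0.241, limma). Estimates in *rev-5* were positive for 1 of 8 members in WL (median -0.18) and 2 of 8 in WL+FR (median -0.05). Medians over all tested genes were 0 and 0.02. *ATHB2* in WL+FR stood at 31.8 and 31.0 TPM in *rev-5* and 36.6 and 41.3 TPM in Col-0, a log2 difference of -0.30 (95% interval -0.58 to -0.02, adjusted p = 0.262, limma). The response of *ATHB2* to light differed from Col-0 by -0.26 in *rev-5* (95% interval -0.66 to 0.14) and by -0.10 in the libraries labelled *wox4* (-0.50 to 0.30), both on the log2 scale. *HAT1* in WL+FR was 46.1 and 49.8 TPM in the libraries labelled *wox4* and 39.3 and 42.3 TPM in Col-0, a log2 difference of 0.23 (95% interval 0.03 to 0.42, adjusted p = 0.27, limma). The intervals of *ATHB4* were the widest, from -0.75 to 0.11 in *rev-5* in WL and from -0.08 to 0.79 in the libraries labelled *wox4* in WL+FR, and no difference within these intervals is excluded by the 2 libraries per group.

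**Figure D4:**
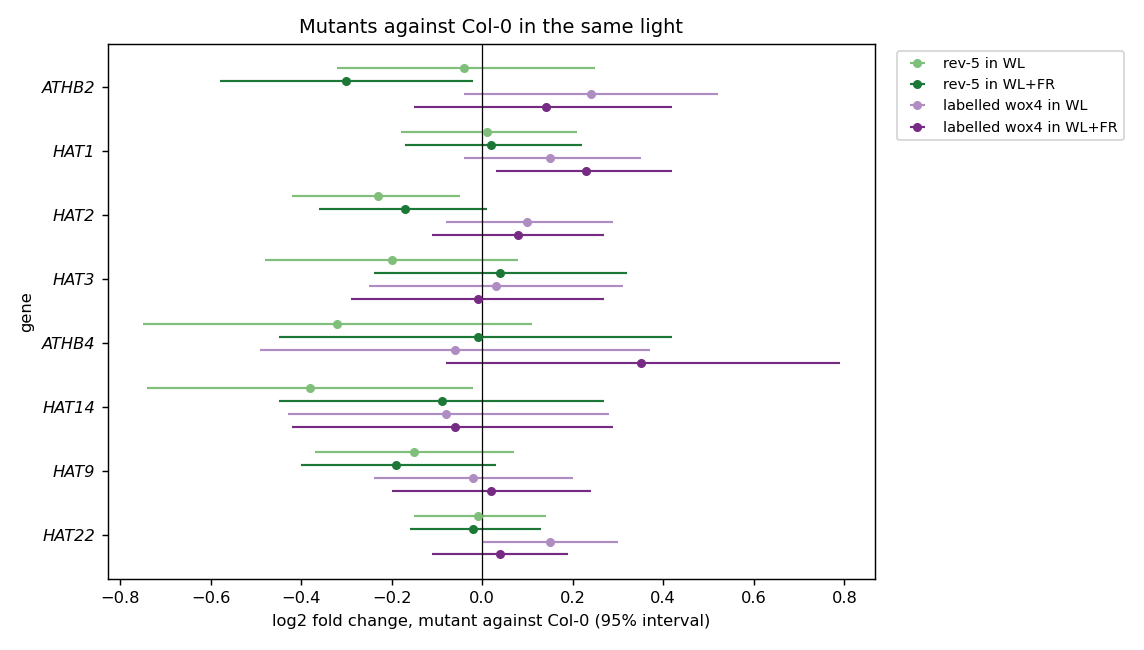
Log2 fold change of *rev-5* and of the libraries labelled *wox4* against Col-0 in the same light (horizontal axis) for each of the 8 genes (vertical axis). Points are limma estimates from 2 against 2 libraries and lines are 95% intervals. All estimates lie between -0.38 and 0.35.

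The remaining genes of the class and of its pathway are given for context from lists chosen by function. *ATHB17* and *ATHB18*, HD-ZIPII genes outside the 8, both passed as higher in the mean of the 3 genotypes, with log2 fold changes of 0.57 (adjusted p = 0.000581, limma) and 0.49 (adjusted p = 0.0143). *ATHB17* stood at 3.19 to 5.34 TPM in WL and 5.93 to 7.86 TPM in WL+FR, and *ATHB18*, at 0.81 to 3.28 TPM, overlapped between the lights. In quantile normalized values 1 of these 2 genes passed. The median log2 change was 0.58 over the 8 members and 0.11 over all tested genes. The counts of the lists below stand beside 28.1% of all tested genes that passed as higher in this mean, and 13.6% after quantile normalization.

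Of 17 class I HD-ZIP genes, a sister class linked to drought and light responses, 14 were tested, 10 passed as higher and 1 as lower, with a median of 0.33. *ATHB52* was the class I gene with the largest change, from 5.78 to 10.5 TPM in WL to 32.0 to 44.1 TPM in WL+FR (log2 fold change 2.07, adjusted p = 1.26e-07, limma). *ATHB7* and *ATHB23* rose (0.52 and 0.47) and *ATHB53*, at only 0.64 to 2.04 TPM, fell by 0.47 on the same scale. Neither *ATHB23* nor *ATHB53* passed within a single genotype. After quantile normalization 9 class I genes passed as higher and 1 as lower.

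Changes were smaller among the HD-ZIPIII genes, which determine the upper side of leaves and vascular pattern. Of 5, 3 passed as higher (*ATHB8* 0.27, *CNA* 0.20 and *PHB* 0.18 on the log2 scale) with a median of 0.18, but 0 of 5 passed after quantile normalization or when the leaf markers were left out of the TPM sum. *REV* itself stood at 0.05 (adjusted p = 0.592, limma). Of the 5 TOPLESS corepressors, 3 passed as higher (*TPR2* 0.29, *TPR4* 0.28 and *TPL* 0.27), with a median of 0.27, and 0 passed after quantile normalization.

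Upstream of the HD-ZIPII genes, 4 of 9 phytochrome and PIF genes passed as higher, namely *PHYB*, the main photoreceptor of red and far-red light in this response (1.04), *PIF5* (0.58), *PHYA* (0.28) and *PIF3* (0.19), and the median was 0.11. After quantile normalization 3 of the 9 passed and the median was -0.02. Of 15 other shade marker genes, 12 passed as higher with a median of 1.10, and after quantile normalization 12 passed with a median of 0.97. The largest changes were those of *PIL1* (3.76) and *HFR1* (3.09), which encode relatives of the PIFs, of *CKX5* (2.92), a cytokinin oxidase, and of *IAA29* (2.12), an auxin response gene.

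**Figure D5:**
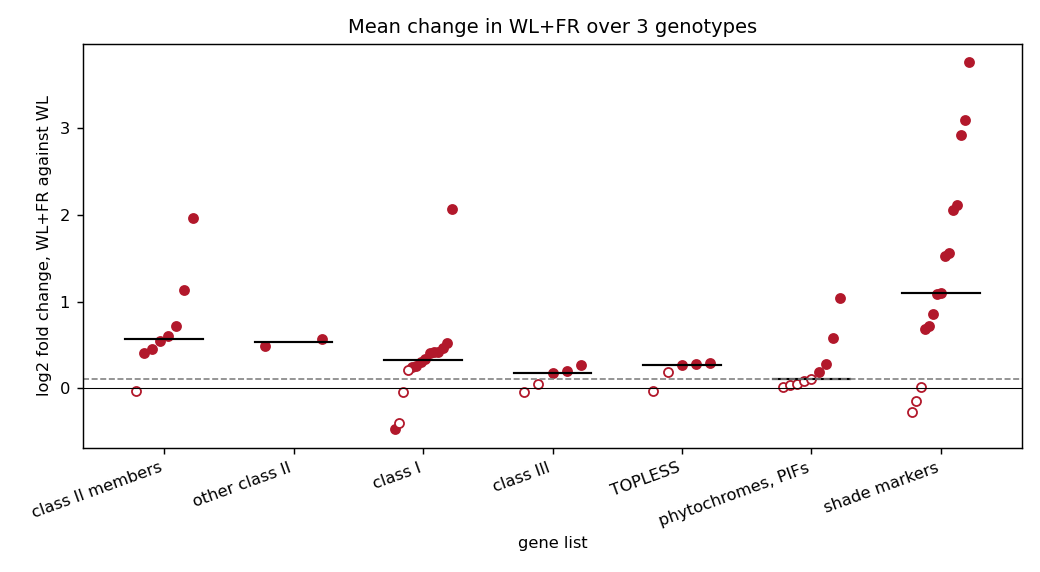
Log2 fold change of WL+FR against WL as a mean of 3 genotypes (vertical axis) for the genes of each list (horizontal axis). Filled points passed an adjusted p of 0.05 in limma, open points did not, black bars are list medians and the dashed grey line is the median of all tested genes, 0.11. The medians were 0.58 for the 8 members and 1.10 for the shade markers.

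Across the 12 libraries, the genes with the pattern most like *ATHB2* among 13744 genes whose mean reached 5 TPM were *IAA7* (Pearson's r 0.996), *BBX24* (0.994), *SOT14* (0.993), *IAA2* (0.992) and *GH9C2* (0.992). For *HAT2* they were *COL5* (0.994), AT1G62480 (0.992), *NPF1.2* (0.99), *KIN7G* (0.99) and *POX1* (0.99). The libraries fall into 2 lights, so these values describe mainly a shared difference between the lights. Among the members, *ATHB2* and *HAT2* had an r of 0.98 over the 12 libraries and 0.62 once the mean of each light was removed.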

How the data were processed

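RNA was extracted from seedlings of 6 groups with 2 libraries each, and TruSeq libraries were sequenced as paired ends. The authors deposited FPKM values per gene with lower and upper bounds, 1 table for each library. The methods of the study name HISAT2 and TAIR10, whereas the submitters' processing notes list FastQC, Bowtie2 and Cufflinks, so the aligner behind these values is not settled. Multi-mapping and strand settings are not given in the sources used here, and mapping of fragments shared by related genes could shift values between them. The FPKM were rescaled to a sum of 1000000 per library (TPM), since their sums differed. The 2 identifiers listed in 2 rows were summed.

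Genes whose mean reached 0.5 TPM entered the test as log2(TPM + 1) with limma 3.58.1 in R 4.3.3, with 6 group means, a mean-variance trend and Benjamini-Hochberg adjustment over 20020 genes. A DESeq2 fit as in the study needs counts and was not made. Intervals are at 95%. The value of a single gene was also tested by exact permutation of the lights within genotypes. Precision is limited by 2 libraries per group and by depth. The bounds correspond to 12650000 to 14100000 fragments only if they hold counting error alone, which is not so for every gene. The paper reports more read pairs per sample, most of them aligned, so this figure is not a measured depth. On simulated data, 94 of 100 genes changed by 1 on the log2 scale and 12 of 100 changed by 0.5 were recovered in the Col-0 comparison, and 100 and 83 in the mean of 3 genotypes. The simulation assumed the spread between libraries and changed a far smaller share of its 18788 genes than passed in the real data. Genes with a mean as low as that of *ATHB4* were not among the changed ones. These rates are therefore not the power of the real comparisons.

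The members and lists were chosen with earlier results of these data known. Every member was named in every comparison, and for other lists the called genes with the largest change, at most 4. For the 2 members with the largest mean change the 5 genes with the highest Pearson's r are given. Alternatives were another pseudocount, other filters, FPKM, quantile normalization, limma without trend, voom on approximated fragments, the groups compared alone, stricter thresholds and each library left out. Coordinates and sequences are from TAIR10.1, in which 32519 of 32538 matched genes had the start and end of the files.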

Additional observations from a re-analysis of the deposited data

How the results depend on the processing

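The call of a rise in *ATHB2*, *HAT1* and *HAT2* held in each genotype, and those of 7 members in the mean of 3 genotypes, under every normalization, filter, pseudocount, model and left-out library run at an adjusted p of 0.05. The 37 lost calls concerned *HAT9*, *ATHB4*, *HAT14* and *HAT22* within single genotypes, and no call was gained. With the thresholds of the study 2 members were called in Col-0, 2 in *rev-5*, 2 in the libraries labelled *wox4* and 2 in the mean. In *rev-5* the count of 7 became 4 with only the groups compared and 4 at an adjusted p under 0.01, and in the libraries labelled *wox4* the count of 6 became 3 after quantile normalization. With 1 library left out, an arm of 1 library being assumed to vary like the others, the count ranged from 4 to 5 in Col-0, 4 to 7 in *rev-5* (4 without replicate 10 or 12), 4 to 5 in the libraries labelled *wox4* and stayed at 7 in the mean. The counts of 0 in the mutant and response comparisons stayed at 0 throughout. The 2 alternatives without the libraries labelled *wox4* and without leaf markers in the TPM sum, and the mean of both lights, were chosen after seeing the data. No paired analysis was possible because the groups share no replicate numbers. The cause of these changes was not tested.

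Values near 0 changed sign in 68 cases before rounding, in 62 of them with no value that rounds to 0, and none was called. Outside the left-out libraries they were *HAT3* in the mean light comparison without the libraries labelled *wox4* (0.03), the difference in response of *HAT1* in *rev-5* with FPKM (0) and quantile normalization (-0.01), and that of *HAT9* (-0.01, quantile) and *HAT14* (-0.01 with FPKM, -0.04 quantile) in the libraries labelled *wox4*. Against Col-0, the libraries labelled *wox4* changed sign for *ATHB4* as a mean of both lights (0.15) and in WL+FR for *HAT9* with FPKM (-0.01), quantile normalization (-0.04) and voom (-0.01) and for *HAT22* with quantile normalization (0). With 1 library left out, log2 values held both signs in the light comparison in the libraries labelled *wox4*, from -0.30 to 0.03 for *HAT3*. In the mean light comparison they ran from -0.08 to 0.03 for *HAT3*. In the difference in response between *rev-5* and Col-0 they ran from -0.11 to 0.13 for *HAT1*, -0.01 to 0.13 for *HAT2*, -0.16 to 0.09 for *HAT9* and -0.06 to 0.04 for *HAT22*. In the difference in response of the libraries labelled *wox4* from Col-0 they ran from -0.24 to 0.03 for *ATHB2*, -0.04 to 0.19 for *HAT1*, -0.11 to 0.07 for *HAT2*, -0.20 to 0.13 for *HAT3*, -0.03 to 0.10 for *HAT9* and -0.14 to 0.17 for *HAT14*. In *rev-5* against Col-0 in WL they ran from -0.17 to 0.10 for *ATHB2*, -0.10 to 0.13 for *HAT1* and -0.06 to 0.04 for *HAT22*. In *rev-5* against Col-0 in WL+FR they ran from -0.03 to 0.08 for *HAT1*, -0.05 to 0.13 for *HAT3*, -0.06 to 0.03 for *ATHB4*, -0.27 to 0.09 for *HAT14* and -0.05 to 0.01 for *HAT22*. In the libraries labelled *wox4* against Col-0 in WL they ran from -0.14 to 0.19 for *HAT3*, -0.18 to 0.07 for *ATHB4*, -0.08 to 0.04 for *HAT9* and -0.23 to 0.08 for *HAT14*. In the libraries labelled *wox4* against Col-0 in WL+FR they ran from -0.11 to 0.09 for *HAT3*, -0.04 to 0.08 for *HAT9*, -0.14 to 0.02 for *HAT14* and -0.01 to 0.09 for *HAT22*.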
